A study of Arabidopsis thaliana with 9 samples.

Results

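The genes described here are 9 early-response loci of Arabidopsis thaliana that textbook work ties to touch, wounding and cold: TCH2 (AT5G37770), TCH3 (AT2G41100), TCH4 (AT5G57560), ZAT10 (AT1G27730), ZAT12 (AT5G59820), SZF1 (AT3G55980), CBF1 (AT4G25490), CBF2 (AT4G25470) and CBF3 (AT4G25480). They were chosen by name and, like the gene lists set beside them below, with earlier results of these data known. A locus was described where a probe set, the group of short oligonucleotides that reads a transcript on the array, could be named for it, and probe sets whose suffix marks sequence shared between genes were left out. Such a probe set was named for 7 of the 9, among 14765 genes with a named probe set in all. CBF1 and CBF2 have no named probe set here and are not described further. RefSeq lists ZAT10 as STZ, ZAT12 as RHL41 and CBF3 as DREB1A.

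Transcripts were measured in inflorescence stems of Columbia-0 plants 1.5 months old on 9 Affymetrix ATH1 arrays, 3 each from wild type, an HCT-RNAi line and ccr-1, a loss of function mutant. HCT is a hydroxycinnamoyl transferase of the pathway to lignin monomers, lowered there by RNA interference, and ccr-1 lacks function of CCR1, the cinnamoyl-CoA reductase that opens the branch specific to lignin. All plants were grown in the same substrate at 21 °C with 16 h of light and 8 h of darkness, after 2 days at 4 °C as seeds, and no group was given a touch, wound or cold treatment by the labels. The promoter of the RNAi construct, the number of independent lines, whether the arrays of a group hold separate plants or pools, and the hour of harvest are not stated in the labels. The spread behind each p-value is that between arrays and may be technical.

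Touch, wounding and cold all raise free calcium in plant cells within seconds, and transcripts of a shared set of genes follow within minutes. TCH genes were named for their rise after touch: TCH2 and TCH3 encode calmodulin-like calcium sensors, and TCH4 a xyloglucan endotransglucosylase/hydrolase that cuts and rejoins wall xyloglucan. ZAT10 and ZAT12 are C2H2 zinc finger transcription factors and SZF1 is a CCCH zinc finger protein, all induced rapidly by several stresses. CBF1, CBF2 and CBF3 are AP2-type transcription factors that activate cold-regulated genes, and their own transcripts are gated by the circadian clock and by light.

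Over 22746 probe sets, correlations ran from 0.997 to 0.999 within groups and from 0.949 to 0.960 between them, and no array stood apart from its group. HCT (AT5G48930) was 11.5-fold lower in HCT-RNAi than in wild type (log2 change -3.53 ± 0.05, SE) and CCR1 (AT1G15950) 3.50-fold lower in ccr-1 (-1.81 ± 0.06), as labelled. The 6 named genes of a list of 9 markers of the lignified stem were called present on all 9 arrays. Their summed linear intensity was 21456 to 23277 on wild-type arrays, 7160 to 7963 for HCT-RNAi and 7062 to 7365 for ccr-1. Floral organ markers, 9 named of 10, summed to 267 to 283 on wild-type arrays, 1019 to 1046 for HCT-RNAi and 2994 to 3130 for ccr-1. AP3, SHP2 and STK were called absent on all 3 wild-type arrays. Seed storage markers, 8 of 8 named, summed to 148 to 159, 148 to 151 and 75262 to 78141 in the same order, with CRA1, CRU2, SESA1 and SESA4 absent on all wild-type arrays and CRA1 and SESA1 on all HCT-RNAi arrays. The 2 named phloem markers of 4 summed to 955 to 1047, 909 to 937 and 546 to 566. They moved apart in HCT-RNAi, where APL rose by 1.20 and SEOR1 changed by -0.56 on the log2 scale. The actin control probe sets, a measure of RNA integrity, gave a log2 difference between 3' and 5' ends of 4.36 ± 0.02 (SD, n = 3) for HCT-RNAi, 3.98 ± 0.06 for wild type and 3.86 ± 0.04 for ccr-1. The same difference for GAPDH was 1.78 ± 0.12, 1.46 ± 0.06 and 1.61 ± 0.05, so HCT-RNAi was highest by both and the order of the other groups differed. These measures moved with genotype, and their part in the results below was not tested. In a whole stem, fewer cells of a type and less RNA per cell cannot be told apart. Floral organ markers also differed among the groups, and seed storage markers in ccr-1, so the sampled material may differ in its organs. The part of such a difference in the results below was not tested.

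Of the 7 measured genes, 6 were lower in both lignin lines than in wild type, with the order wild type, ccr-1, HCT-RNAi from high to low. CBF3 alone was higher in HCT-RNAi. Their log2 changes ran from -3.13 to -1.72 in HCT-RNAi and from -1.78 to -0.43 in ccr-1. All 7 were called present on all 9 arrays. The naming of these genes was not independent of their change. The platform annotation names only ZAT10 among them. The other 6 are named only through the authors' table, and each of its 3783 probe sets has a ratio of at least 2-fold in some comparison, so these 6 had to differ somewhere and their counts are given as a description.

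**Figure D1:**
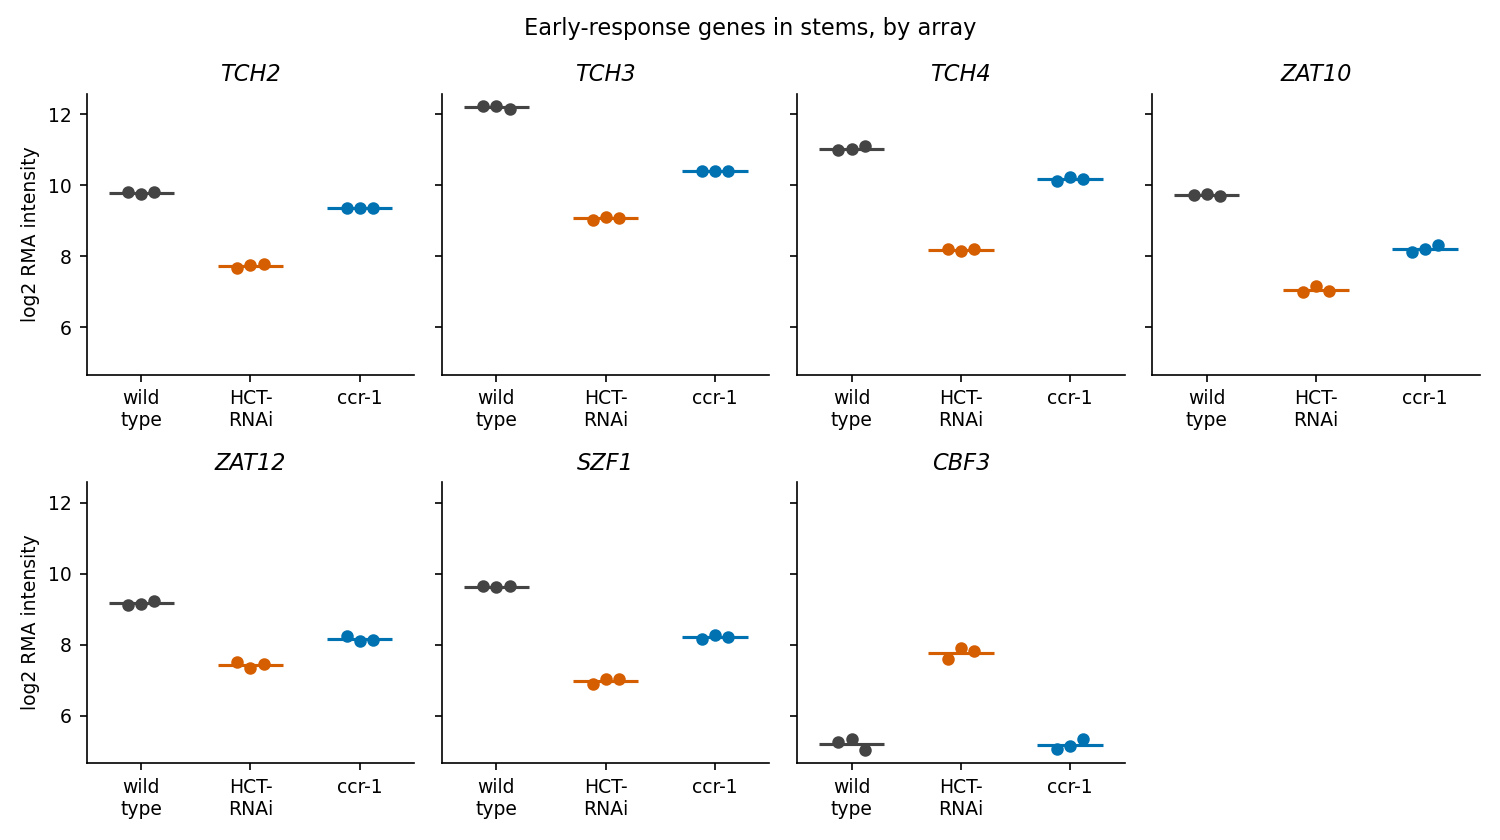
Log2 RMA intensity (y axis) of the 7 measured genes on each of the 9 arrays, with a point for each array and a line at the mean of 3. The wild-type points lie highest and the HCT-RNAi points lowest for TCH2, TCH3, TCH4, ZAT10, ZAT12 and SZF1, while CBF3 lies near 5.2 in wild type and ccr-1 and near 7.8 in HCT-RNAi.

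TCH2 had log2 intensities of 9.81, 9.74 and 9.81 on the wild-type arrays, 7.66, 7.77 and 7.79 in HCT-RNAi, and 9.37, 9.36 and 9.36 in ccr-1. The 3 groups did not overlap, and ccr-1 lay much closer to wild type than to HCT-RNAi. The fall in HCT-RNAi was 4.13-fold (log2 change -2.05 ± 0.06, SE, n = 3 arrays per group; limma adjusted p = 9.28e-12). In ccr-1 it was 1.34-fold (-0.43 ± 0.06, adjusted p = 2.58e-05), the smallest called change of these genes.

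TCH3 read 12.22, 12.22 and 12.14 in wild type, 9.01, 9.12 and 9.07 in HCT-RNAi, and 10.41 on all 3 ccr-1 arrays. Each group stood at least 1.29 log2 units clear of the next. It fell 8.73-fold in HCT-RNAi (-3.13 ± 0.05; adjusted p = 2.53e-13), from a mean linear intensity of 4689 to 537. In ccr-1 it fell 3.44-fold (-1.78 ± 0.05; adjusted p = 3.41e-11), and these were the largest changes among the 7 in either line. The deposited intensity of TCH3 was identical on the 3 ccr-1 arrays, which holds for 119 probe sets of that group. Such ties come with the deposited values, where 18.7% of probe sets have equal values on at least 2 arrays of some group, so a replicate SD of 0 is not a measure of biological constancy.

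TCH4, the wall enzyme, read 10.99, 11.01 and 11.10 in wild type, 8.19, 8.14 and 8.20 in HCT-RNAi, and 10.13, 10.24 and 10.16 in ccr-1. Again no groups overlapped, and ccr-1 was the nearer to wild type. It was 7.25-fold lower in HCT-RNAi (-2.86 ± 0.06; adjusted p = 6.62e-13) and 1.81-fold lower in ccr-1 (-0.86 ± 0.06; adjusted p = 4.65e-08).

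ZAT10, the gene whose name does not rest on the authors' table, read 9.72, 9.76 and 9.70 in wild type, 6.99, 7.16 and 7.03 in HCT-RNAi, and 8.12, 8.20 and 8.32 in ccr-1. The ccr-1 arrays fell between the other groups. The fall was 6.34-fold in HCT-RNAi (-2.66 ± 0.07; adjusted p = 4.36e-12) and 2.85-fold in ccr-1 (-1.51 ± 0.07; adjusted p = 1.10e-09).

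SZF1 followed ZAT10 closely, with 9.64, 9.62 and 9.64 in wild type, 6.90, 7.05 and 7.04 in HCT-RNAi, and 8.17, 8.27 and 8.22 in ccr-1. It was 6.24-fold lower in HCT-RNAi (-2.64 ± 0.06; adjusted p = 1.82e-12) and 2.67-fold lower in ccr-1 (-1.41 ± 0.06; adjusted p = 6.75e-10).

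ZAT12 read 9.13, 9.14 and 9.22 in wild type, 7.52, 7.36 and 7.45 in HCT-RNAi, and 8.25, 8.11 and 8.14 in ccr-1. It had the smallest fall of the 6 in HCT-RNAi, at 3.30-fold (-1.72 ± 0.06; adjusted p = 1.36e-10). In ccr-1 the fall was 1.00 ± 0.06 on the log2 scale, a ratio of means of 0.501 in the authors' deposited table (adjusted p = 3.28e-08).

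CBF3 took the other direction, and in HCT-RNAi only. It read 5.27, 5.34 and 5.03 in wild type, 7.61, 7.90 and 7.82 in HCT-RNAi, and 5.07, 5.14 and 5.36 in ccr-1. The HCT-RNAi arrays lay at least 2.25 log2 units above all others, and the wild-type and ccr-1 arrays overlapped. It was 5.91-fold higher in HCT-RNAi than in wild type (2.56 ± 0.10; adjusted p = 3.17e-10). Between ccr-1 and wild type the difference was -0.02 ± 0.10 (adjusted p = 0.872), with a 95% confidence interval of -0.25 to 0.20. CBF3 also had the widest spread of the 7, with SDs of 0.15 to 0.16 against a median SD over all probe sets of 0.07 in wild type and HCT-RNAi and 0.08 in ccr-1. In the RefSeq gene order CBF3 lies between CBF2 and CBF1 on chromosome 4, and whether the CBF3 probes also bind the closely related transcripts of these neighbours was not tested.

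The direct comparison of the lines tests whether the falls differed in size. All 6 touch and zinc finger genes stood above their HCT-RNAi level in ccr-1, by 0.73 to 2.00 on the log2 scale. The gap was widest for TCH4 (2.00 ± 0.06, 4.00-fold; adjusted p = 2.39e-11) and TCH2 (1.62 ± 0.06; adjusted p = 1.35e-10). TCH3 (1.34 ± 0.05; adjusted p = 5.89e-10), SZF1 (1.23 ± 0.06; adjusted p = 3.15e-09) and ZAT10 (1.15 ± 0.07; adjusted p = 1.67e-08) had similar gaps, and ZAT12 the narrowest (0.73 ± 0.06; adjusted p = 7.00e-07). CBF3 was 6.01-fold below its HCT-RNAi level in ccr-1 (-2.59 ± 0.10; adjusted p = 5.35e-10). Every neighbouring pair in the order of levels thus passed the test for the 6 genes, and for CBF3 the pair of wild type and ccr-1 did not.

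**Figure D2:**
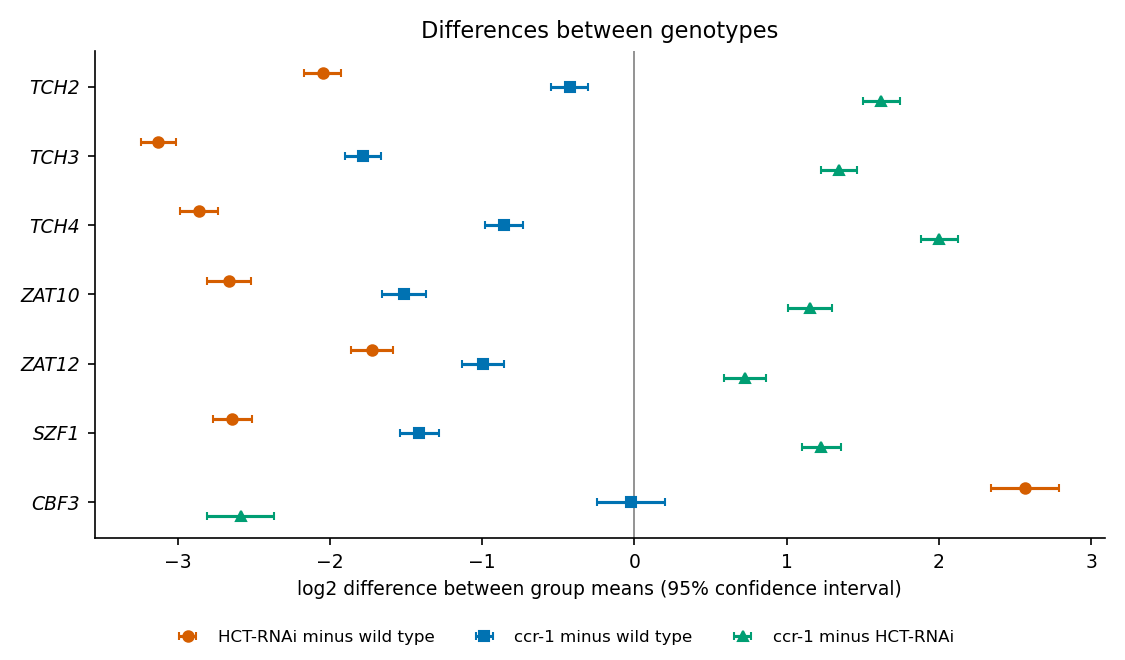
Log2 differences between group means (x axis) with 95% confidence intervals for the 7 genes, for HCT-RNAi minus wild type (circles), ccr-1 minus wild type (squares) and ccr-1 minus HCT-RNAi (triangles). The circles of the 6 touch and zinc finger genes lie between -3.13 and -1.72 and their squares between -1.78 and -0.43, while CBF3 has its circle at 2.56 and its square at -0.02.

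These counts stand against a background in which most probe sets were called. In HCT-RNAi against wild type 27.7% of 22746 probe sets were called lower and 32.9% higher, and of the 7 genes 6 were lower and 1 higher. In ccr-1 against wild type the shares were 30.1% lower and 24.7% higher, and 6 of 7 were lower. In ccr-1 against HCT-RNAi they were 25.4% higher and 33.6% lower, and 6 of 7 were higher. Groups did not overlap for 66.6%, 59.3% and 63% of probe sets, and for 7, 6 and 7 of the 7 genes. Within the authors' table, from which 6 of the names come, 45.8% of probe sets were called lower in HCT-RNAi and 44.4% in ccr-1. All 6 genes fell at least 2-fold in HCT-RNAi, and TCH3, ZAT10 and SZF1 in ccr-1. Such falls made up 5.79% and 3.71% of all probe sets and 34.8% and 22.3% of the authors' table. Since a 2-fold ratio is what the table holds, nothing is read from these counts. The median log2 change over all probe sets was -0.01 in HCT-RNAi and -0.04 in ccr-1. The comparisons with wild type share the same 3 control arrays.

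The wider touch and calcium list held calmodulins, other calmodulin-like (CML) proteins and mechanosensitive channels, 24 entries of which 14 had a name. In HCT-RNAi 12 of the 14 fell, none rose and 2 did not pass, with a median log2 change of -1.24. In ccr-1 10 fell, 2 rose and 2 did not pass, with a median of -0.86. Called lower were 27.7% of all probe sets and 45.8% of the authors' table in HCT-RNAi, and 30.1% and 44.4% in ccr-1. Of the 11 named by the platform annotation, a naming that does not depend on a change on these arrays, 9 fell in HCT-RNAi and 7 in ccr-1. Among all 13129 probe sets named that way, 26.6% and 27.8% were called lower. The list itself was chosen with earlier results of these data known, so these counts are a description. CML40 changed by -3.18 (HCT-RNAi) and -2.01 (ccr-1) on the log2 scale, and CML38 by -2.95 and -1.75. CAM2, the calmodulin first cloned as TCH1, had changes of -1.70 and -0.71, CML10 of -1.64 and -0.94, and CML42 of -1.45 and -0.78. CML45 had changes of -1.37 and -1.45. CML9 fell more in ccr-1, with -0.65 in HCT-RNAi and -1.21 in ccr-1 and a direct difference of -0.56 ± 0.05 (adjusted p = 1.97e-06). CML41 was lower in HCT-RNAi (-1.80 ± 0.09) and higher in ccr-1 (0.76 ± 0.09), and differed by 2.56 ± 0.09 between the lines (adjusted p = 2.18e-10). It was called present on 1 of 3 HCT-RNAi arrays, so differences from that group rest partly on values not above background. CML47, named here after its values were seen, was the other gene that rose in ccr-1, by 0.46. Calmodulin transcripts are close in sequence, and cross-binding of their probes was not tested.

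The list of rapid wound and stress regulators, also chosen with earlier results known, held 34 entries, mostly WRKY, ERF and zinc finger factors. Of these 25 had a name, only 3 of them from the platform annotation. All 25 fell in HCT-RNAi, with a median of -1.55, where 27.7% of all probe sets and 45.8% of the authors' table were called lower. PUB22 and PUB23 are not in that table. In ccr-1 20 fell, 2 rose and 3 did not pass, with a median of -1.04. There 30.1% of all probe sets and 44.4% of that table were called lower. Between the lines, 23 of the 25 stood higher in ccr-1, none lower, and 2 did not pass. In that comparison 53.3% of the authors' table was called higher and 36.7% lower, and 25.4% and 33.6% of all probe sets. ERF109, a redox-responsive ERF factor, was called absent on all 3 HCT-RNAi arrays and was at least 15.9-fold lower there (adjusted p = 1.01e-13). In ccr-1 its change was -2.66 ± 0.06 (adjusted p = 2.03e-12). For such a gene the bound sets the mean of the other group against, on each array, the higher of its own value and the lowest value among probe sets called present. On the HCT-RNAi arrays that lowest value was 3.23 to 3.32. The absent genes had means of 4.14 to 5.17 there, so each bound equals the measured fold and makes no allowance for its error. WRKY40 and WRKY18, related factors of defence, had changes of -3.54 and -3.36 in HCT-RNAi and of -2.29 and -2.22 in ccr-1. WRKY40 was called present on 2 of 3 HCT-RNAi arrays, so its change there rests partly on a value not above background. WRKY53 changed by -2.73 and -2.43. The ethylene response factor genes ERF2 and ERF1A changed by -3.52 and -2.73 in HCT-RNAi and by -1.95 and -1.51 in ccr-1. DIC2, a mitochondrial dicarboxylate carrier gene, and CAF1a, an mRNA deadenylase gene, had changes of -3.34 and -3.17 in HCT-RNAi and of -1.22 and -1.14 in ccr-1. The 2 that rose in ccr-1, named after their values were seen, were RAP2.6 (0.72 ± 0.07), at least 2.94-fold lower in HCT-RNAi where it was called absent, and ZAT6 (0.97 ± 0.06), which was at -0.18 in HCT-RNAi (adjusted p = 0.0195). ERF13, also called absent on all HCT-RNAi arrays, was at least 2.14-fold lower there. Leaving out any 1 array or changing any setting other than the naming and the filter on dim probe sets left 24 to 25 lower in HCT-RNAi. In ccr-1 these settings left 20 to 21 of the list lower. With the filter, which drops dim genes from the test, 22 and 18 were lower. Of the 3 named by the platform annotation, 3 and 2 were lower.

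**Figure D3:**
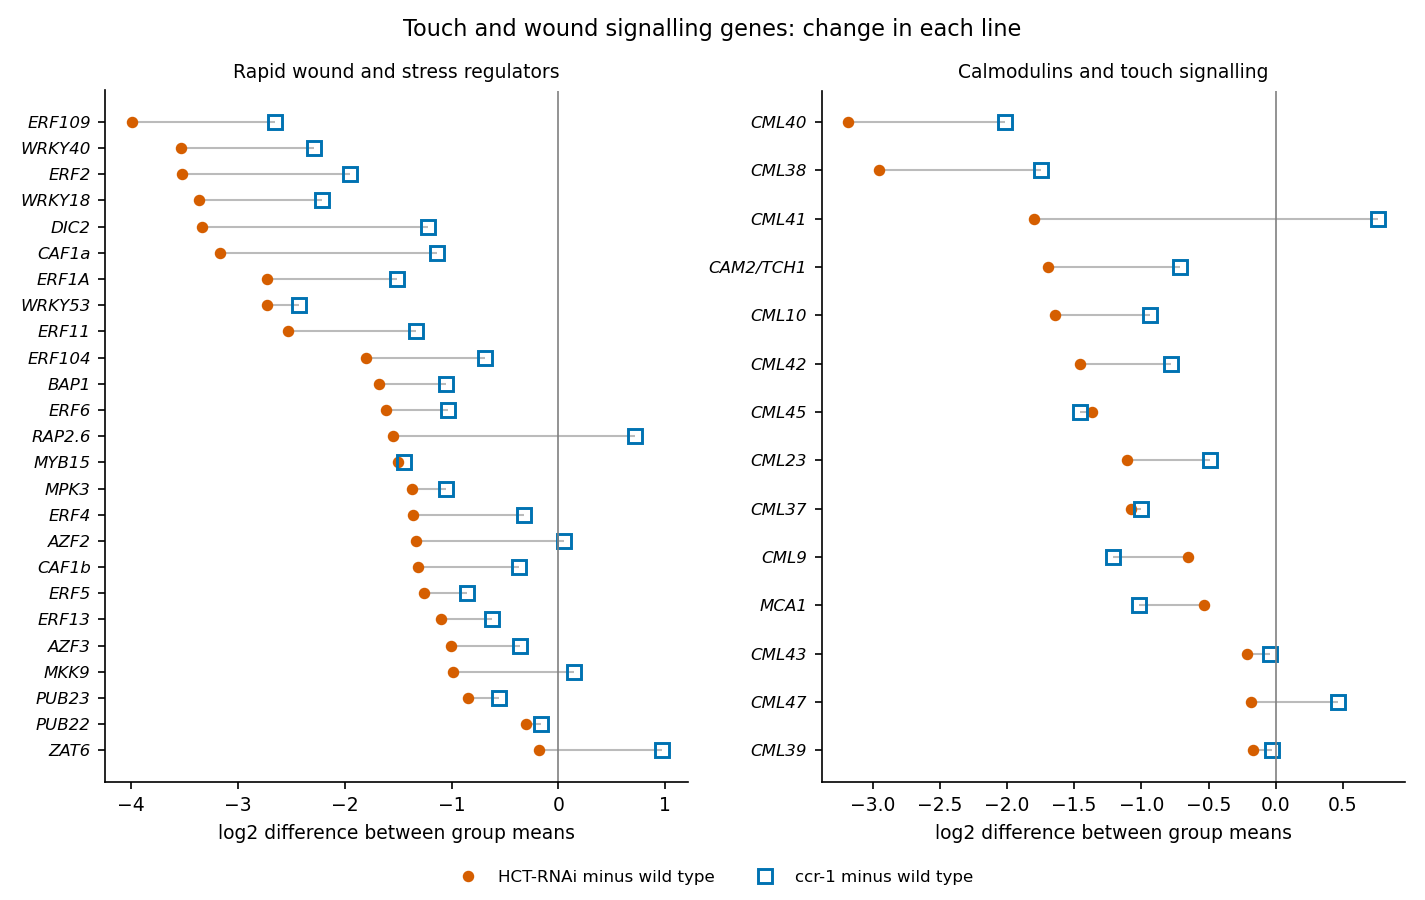
Log2 differences from wild type (x axis) of the 25 named wound and stress regulators (left) and the 14 named calmodulins and touch signalling genes (right), with HCT-RNAi as filled circles and ccr-1 as open squares, ordered by the HCT-RNAi value. The circles all lie below 0, and most squares lie between the circle and 0, with CML41, RAP2.6 and ZAT6 among those above 0. For ERF109, RAP2.6, MYB15 and ERF13 the HCT-RNAi circle is the measured difference of a gene called absent there.

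CBF3 was set beside genes known to act on the CBF genes and related factors, and beside the targets of CBF proteins. Of 18 listed regulators and related factors 8 had a name. In HCT-RNAi 4 rose, 2 fell and 2 did not pass, and the same counts were found in ccr-1. In the authors' table, 46.2% of probe sets were called higher and 45.8% lower in HCT-RNAi, and 48.4% and 44.4% in ccr-1. Over all probe sets the shares were 32.9% and 27.7% in HCT-RNAi, and 24.7% and 30.1% in ccr-1. The 4 of 8 that rose are near the share of the authors' table, so nothing is read from their number. ICE1 and ICE2, bHLH activators of CBF genes, rose by 0.77 ± 0.05 and 1.53 ± 0.08 in HCT-RNAi. In ccr-1 they rose by 1.04 ± 0.05 and 0.96 ± 0.08. MYB15, a repressor of CBF genes, was called absent on all HCT-RNAi arrays and was at least 2.84-fold lower there, and changed by -1.45 ± 0.08 in ccr-1, where it was called present on 1 of 3 arrays. CAMTA3, a calmodulin-binding activator of CBF genes, changed by -0.38 ± 0.08 in HCT-RNAi and by -1.10 ± 0.08 in ccr-1. PHYB, a red light receptor, rose by 1.25 and 0.36, and the drought factor gene DREB2A by 1.10 and 0.61. CAMTA5 and EIN3 did not pass in either line, with values of -0.05 and -0.10 in HCT-RNAi and -0.18 and -0.10 in ccr-1. These 2 were the only regulators named by the platform annotation, and the others carry the selection of the authors' table.

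The cold-regulated targets of CBF proteins split. Of 14 entries 8 had a name, with 4 higher and 4 lower in HCT-RNAi, and 2 higher, 5 lower and 1 not called in ccr-1. The even split in HCT-RNAi is near that of the authors' table, with 46.2% called higher and 45.8% lower. In ccr-1 that table had 48.4% higher and 44.4% lower. Their median was 0.13 in HCT-RNAi and -0.36 in ccr-1. COR15A, which encodes a chloroplast protein that protects membranes in freezing, rose by 3.54 ± 0.06 in HCT-RNAi (adjusted p = 2.46e-13) and by 2.03 ± 0.06 in ccr-1 (adjusted p = 3.10e-11), the line in which CBF3 did not pass. COR413IM1, a chloroplast inner membrane protein gene, rose by 1.87 and 0.70. COR15B and RD29A were higher in HCT-RNAi, by 0.54 ± 0.06 and 0.93 ± 0.08. In ccr-1 RD29A changed by -0.79 ± 0.08 and COR15B was at -0.15 ± 0.06 without a call (adjusted p = 0.0553). The dehydrin genes COR47, ERD10 and LTI30 had changes of -1.77, -1.05 and -0.28 in HCT-RNAi and -0.22, -0.50 and -1.34 in ccr-1. ERD7 changed by -1.56 and -1.53. The 4 targets named by the platform annotation, COR15A, COR15B, COR47 and LTI30, included 2 that rose and 2 that fell in HCT-RNAi.

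CBF transcripts are gated by the clock, so clock genes were read beside CBF3. Of 11 listed 5 had a name, and all 5 were higher in HCT-RNAi, where 32.9% of all probe sets and 46.2% of those in the authors' table were called higher: ELF4 by 1.23 ± 0.10, GI by 1.22 ± 0.06, PRR5 by 1.20 ± 0.14, ELF3 by 0.94 ± 0.06 and PRR7 by 0.29 ± 0.09. In ccr-1 ELF4 and GI rose by 0.46 and 0.27, PRR7 changed by -0.94, and PRR5 and ELF3 did not pass at 0.08 and -0.08. All 5 were lower in the direct comparison of ccr-1 with HCT-RNAi, with differences of -1.23 to -0.78, where 33.6% of all probe sets and 36.7% of that table were called lower. PRR5 was near background in wild type and ccr-1, where it was called present on 1 of 3 arrays each. The 5 include 4 named only by the authors' table, and the call of PRR7 in HCT-RNAi is lost under some settings, which leaves 4 higher. GI, ELF3, ELF4 and PRR5 peak in the afternoon and evening, and PRR7 around midday. CCA1, LHY, RVE8, PRR9, TOC1 and LUX had no named probe set, so no listed gene with an earlier peak was read. The hour of harvest is not given, and its part in the values of CBF3 and of the touch genes was not tested.

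**Figure D4:**
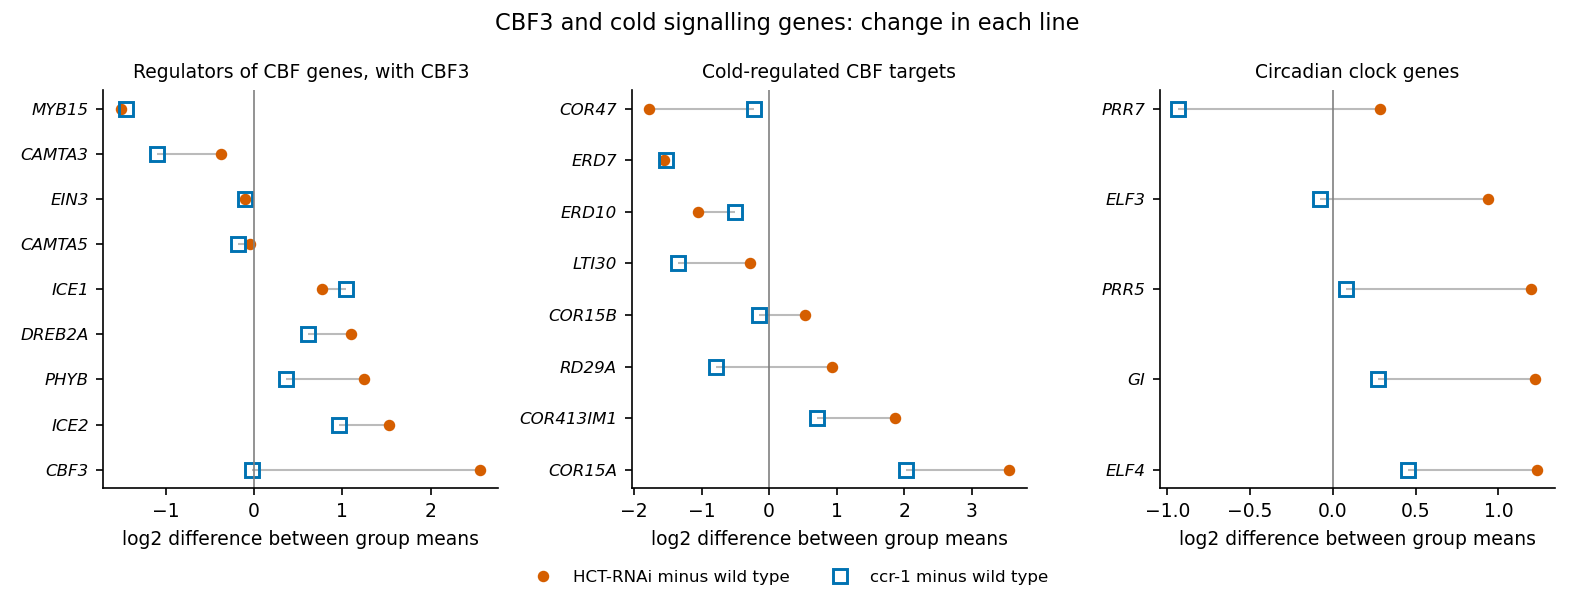
Log2 differences from wild type (x axis) of CBF3, 8 CBF regulators or related factors (left), 8 cold-regulated targets (middle) and 5 clock genes (right). HCT-RNAi is shown as filled circles and ccr-1 as open squares. CBF3 lies at 2.56 in HCT-RNAi and -0.02 in ccr-1, COR15A is above 0 in both lines, and the 5 clock genes lie above 0 in HCT-RNAi.

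Likeness of pattern was measured as the mean absolute difference between log2 profiles over the 9 arrays, each centred on its wild-type mean, over 14888 named probe sets outside the 9 loci. The nearest to TCH3 were AT1G80170 (0.08), the abscisic acid receptor gene PYL4 (0.10) and PMT6, a polyol transporter gene (0.10). The nearest to ZAT10 were PLAT2 (0.07), ERF1A (0.08) and RAS1 (0.09). ERF1A changed by -2.73 and -1.51, beside -2.66 and -1.51 for ZAT10. The nearest to CBF3 was PHS2 (0.11), a cytosolic glucan phosphorylase gene of starch breakdown, which changed by 2.68 in HCT-RNAi and 0.07 in ccr-1. AT3G24750 and DPE2, a glucanotransferase gene of the same pathway, followed at 0.17 each. With 3 groups of close replicates, such profiles hold little more than the differences between 3 means, so many genes can lie near any of them.

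Neighbours on the chromosome did not all share these patterns. CML10, the next protein-coding gene before TCH3 in the RefSeq order, was lower in both lines as given above. XTH25, next to TCH4 and of the same enzyme family, was at -0.16 in HCT-RNAi without a call (adjusted p = 0.195) and rose by 2.39 in ccr-1 (adjusted p = 1.06e-09). JRG21, next to SZF1, rose by 2.47 in HCT-RNAi and 2.82 in ccr-1. Beside ZAT12, the subtilase gene SBT5.4 was at -0.34 and 0.61 and AT5G59830 at 0.16, without a call, and -0.37. TCH2 and ZAT10 have no named neighbour. The neighbours were taken by position, whatever their values, and the named ones of TCH4, SZF1 and ZAT12 did not follow the adjacent gene in both lines.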

How the data were processed

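The submitters' processing notes name RMA and MAS5 without versions or settings. The intensities deposited by the authors, 1 per probe set and array, are on a linear scale, so log2 was taken here. RMA makes array distributions alike, so changes in total RNA cannot be seen. Also deposited by the authors was a table of 3783 non-control probe sets with those intensities, detection calls and the ratio of linear group means.

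Leaving out 64 control probe sets, 22746 were tested on all 9 arrays with group means in limma 3.58.1 (R 4.3.3), with Benjamini-Hochberg adjustment over all of them. A call needs an adjusted p under 0.05. Errors of changes are standard errors of this fit, and 3 arrays per group limit the precision. The code was tested on simulated data.

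Names came from the platform annotation or the locus column of the authors' table (14895 probe sets, 1766 of them only through that table). Neither 1061 probe sets with a shared suffix nor 31 with conflicting names were named. Genes and lists were chosen with earlier results of these data known. All measured members are named in the text, up to 8 genes of a list by largest change, and 3 by likeness for each of TCH3, ZAT10 and CBF3. No coordinates are given, since no build is named. Promoter motifs were not analysed here. Alternatives were median centring, renewed quantile normalization, a filter on dim probe sets, 16 added before log2, fitting only the compared groups, a trended robust variance and leaving out each array.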

Additional observations from a re-analysis of the deposited data

How the results depend on the processing

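Of 252 recomputed changes of the 7 genes, 248 kept their direction and their side of the threshold. The other 4 were all of CBF3 between ccr-1 and wild type, where no call was made: leaving out 1 array moved the value between -0.11 and 0.04, and it changed sign to 0.00305 without wild type replicate 7, 0.0416 without replicate 8, 0.0374 without ccr-1 replicate 4 and 0.00117 without replicate 5. The rise of CBF3 in HCT-RNAi ranged from 2.15, with 16 added before log2, to 2.65. Counts of called probe sets ranged from 12593 to 15469 in HCT-RNAi, 11548 to 12822 in ccr-1 and 12374 to 13968 between the lines. Median centring turned the share called higher from 54.2% to 39.5% in HCT-RNAi and from 43.1% to 53.8% between the lines, by shifting all log2 changes by -0.10 and 0.07. With only names from the platform annotation, a setting chosen after seeing the data, ZAT10 alone is counted: 0 genes higher and 1 lower in HCT-RNAi, 1 lower in ccr-1, and 1 higher and 0 lower in ccr-1 against HCT-RNAi. No paired analysis was possible because the replicate numbers run from 1 to 9 without repeats, so the groups share none. Detection calls were present on all arrays for the 7 genes. CBF3 was still dim in wild type and ccr-1, with mean log2 intensities of 5.21 and 5.19. RAP2.6 was called absent in HCT-RNAi at a mean of 5.17. Among list genes, background limits those absent on all arrays of a group. It also limits those present on some, such as CML41, WRKY40, MYB15 and PRR5. List genes outside the authors' table, such as CML47 and PUB22, have no detection call.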
